A study of Pogonatum aloides with 7 samples.

Results

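In capsules and young gametophytes of the wild-type moss Pogonatum aloides, 116 of 74566 unigenes had their highest level in capsule stage 3, at least 2 times that of each of the other 5 libraries. A unigene is a sequence put together from RNA reads in the absence of a genome. The members were chosen by their deposited RPKM, reads scaled to the length of the unigene and the size of the library: a value listed in all 6 libraries, a mean of 5 or more, and the 2-fold margin of stage 3. Of all unigenes, 18218 were listed in every library, and 9601 of these had a mean of 5 or more. These 9601 are called the shared unigenes below. The height of stage 3 is therefore a description. The margin holds each of the other 5 libraries to at most 0.5 of stage 3 and does not set them against each other. The floor on the mean counts stage 3 as well. A member can therefore pass the floor mainly through stage 3, with low levels in the other libraries.

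The labels name capsules of stages 1, 2 and 3 as small, of stage 4 as middle-sized and of stage 5 as big, and the young gametophyte, labelled as seedlings, is the study's control. Every group consisted of 1 library, so no difference has a replicate check and no p-value is given. A pool of both organs is part of the series and was not analysed here. How many plants went into a library, and whether the haploid calyptra was taken off the capsules, is not given in the sources used here. Whole-organ RNA cannot tell apart fewer cells of a type and less RNA per cell.

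The moss capsule is the spore-forming organ of the diploid sporophyte, which stays attached to the leafy haploid gametophyte and draws nutrients from it. Inside the capsule, sporogenous tissue goes through meiosis and its products mature into walled spores, while the wall, the lid and the peristome that later governs spore release take shape around it. The identifiers carry no gene names, so the labelled tissues could not be checked against marker genes and no role can be given to a member. Members are told apart by their identifier, length and profile. No sequences of the unigenes were used here.

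The low RPKM values fall on steps that correspond to whole reads, which gave implied library totals of 5751812, 5752394, 5747499, 5458335 and 5729201 reads for stages 1 to 5 and 3821669 for the gametophyte. A unigene of 1 kb with 3 reads would stand at 0.522 RPKM given the total of stage 3, or at 0.785 given that of the gametophyte. Intervals below are exact 95% intervals of read ratios, and they cover counting error only.

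The members were a small part of the stage 3 transcriptome. They held 0.990% of the stage 3 reads, while the same unigenes held 0.393%, 0.347%, 0.179% and 0.220% of the reads of stages 1, 2, 4 and 5 and 0.153% of those of the gametophyte. Their stage 3 levels ran from 11.3 to 754 RPKM with a median of 28.8 RPKM, and 15 members reached 100 RPKM. The median level of the members was 10.4, 6.12, 4.03 and 3.88 RPKM for stages 1, 2, 4 and 5 and 4.41 RPKM for the gametophyte. Most members were thus modest in level outside stage 3, and the number with fewer than 20 reads was 26, 50, 71 and 64 for stages 1, 2, 4 and 5 and 79 for the gametophyte. Members were also short: their lengths as recovered had a median of 705.5 bases, while the median shared unigene had 1410 bases. A length recovered from few reads can be too small.

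**Figure D1:**
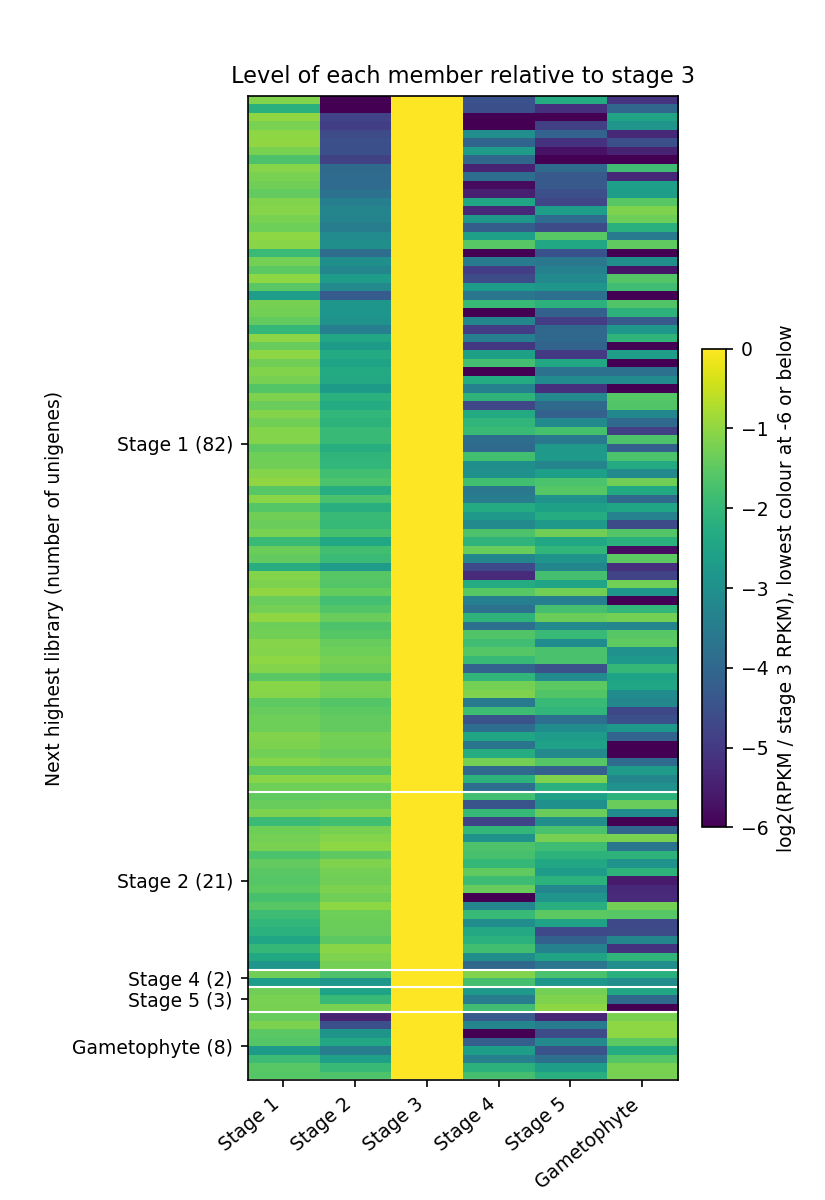
Heat map of the 116 members (rows) in the 6 libraries (columns), coloured by log2 of RPKM over the member's stage 3 RPKM and grouped by the next highest library. Stage 1 is next highest in 82 rows, and the median member is 8.01-fold higher in stage 3 than in stage 4.

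The 4 most abundant members stood well above the rest in stage 3. Unigene791, of 1735 bases, was at 251, 308, 754, 209 and 168 RPKM across stages 1 to 5, with the gametophyte at 15.8 RPKM. Unigene24930, of 2420 bases, was at 256, 239, 578, 45.0 and 96.8 RPKM across stages 1 to 5, with the gametophyte at 8.22 RPKM. Both were abundant in every capsule library and low in the gametophyte, but Unigene24930 was far lower in stages 4 and 5 than in stages 1 and 2, while Unigene791 kept more of its level there. Unigene17150, of 577 bases, was at 128, 136, 479, 17.1 and 58.4 RPKM across stages 1 to 5, with the gametophyte at 3.63 RPKM. Unigene25317, of 2452 bases, was at 189, 208, 453, 59.5 and 193 RPKM across stages 1 to 5, with the gametophyte at 196 RPKM. In the latter, stages 1, 2 and 5 and the gametophyte lay close together, stage 4 was low and stage 3 was high.

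The margin, the ratio of stage 3 to the next highest library, was 2.45 for Unigene791 (interval 2.35 to 2.56), 2.25 for Unigene24930 (2.17 to 2.34), 3.51 for Unigene17150 (3.16 to 3.91) and 2.17 for Unigene25317 (2.08 to 2.27). With 1587 stage 3 reads behind Unigene17150 and 6378 to 8035 behind the others, these intervals are narrow.

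The next 6 by stage 3 level lay between 126 and 226 RPKM. CL1357.Contig1, of 730 bases, was at 73.8, 34.1, 226, 21.8 and 6.22 RPKM across stages 1 to 5, with the gametophyte at 1.08 RPKM (3 reads). Unigene29503, of 2888 bases, was at 48.8, 37.98, 145, 32.5 and 22.7 RPKM across stages 1 to 5, with the gametophyte at 62.2 RPKM, and Unigene26898, of 2771 bases, was at 58.6, 43.7, 134, 27.04 and 23.9 RPKM and at 55.0 RPKM. The capsule values of the latter pair followed the same order, with the gametophyte above or near stage 1, whereas CL1357.Contig1 was almost unread in the gametophyte. Unigene26090, CL7332.Contig1 and Unigene15384 were at 147, 128 and 126 RPKM in stage 3 and between 4.95 and 73.4 RPKM in all other libraries, with margins of 2.01, 2.65 and 2.24.

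**Figure D2:**
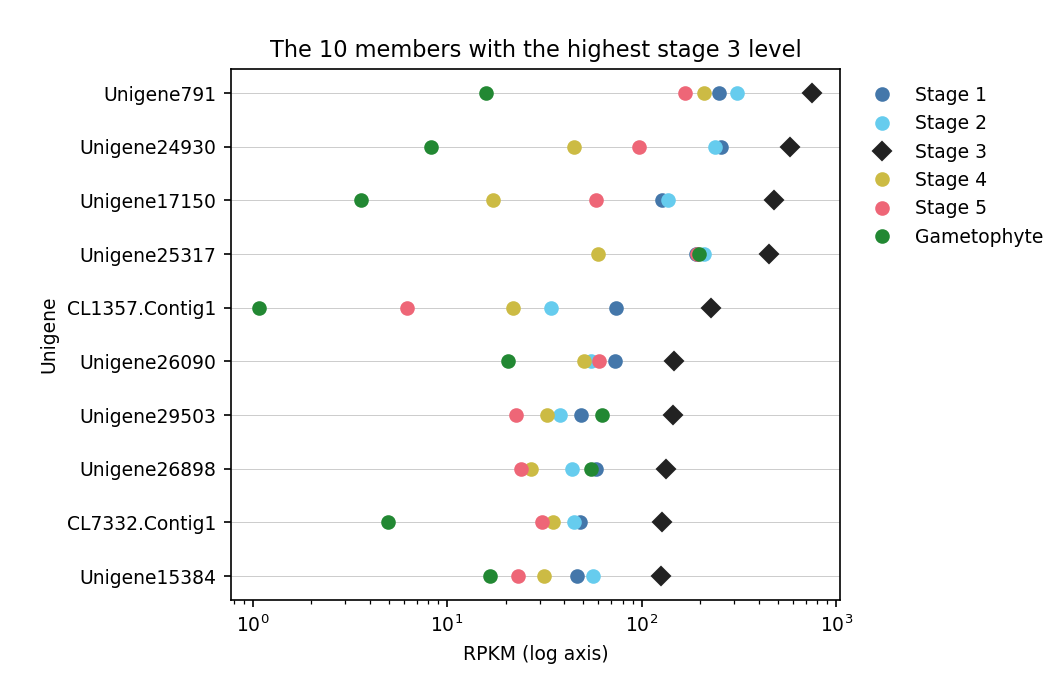
RPKM (log axis) of the 10 members with the highest stage 3 level, 1 point per library and a diamond for stage 3. Stage 3 is the rightmost point in every row, and the gametophyte point ranges from 1.08 RPKM in CL1357.Contig1 to 196 RPKM in Unigene25317.

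Most margins were close to the limit that defined the group. The median was 2.37, 37 members lay below 2.2, 13 reached 3, 5 reached 4 and 1 reached 5. The counting interval over every other library lay wholly above 1 for 112 members and wholly above 2 for 27. The 4 members whose interval reached below 1 had 18 to 26 stage 3 reads.

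The 10 largest margins, from 3.19 to 6.32, belonged to members of mostly low level. Unigene24752, of 1850 bases, was at 4.51, 1.503, 28.5, 2.28 and 2.08 RPKM across stages 1 to 5, with the gametophyte at 0.141 RPKM, which is 1 read. Its margin was 6.32 (interval 4.65 to 8.75), from 303 reads in stage 3 and 48 in stage 1. All 5 other libraries of this unigene were low, and stage 3 stood alone.

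Unigene21318, of 525 bases, was at 11.3, 8.28, 53.7, 2.09 and 5.65 RPKM across stages 1 to 5, with the gametophyte at 1.495 RPKM, a margin of 4.77 (interval 3.28 to 7.12). CL233.Contig2, of 328 bases, was at 5.30, 3.18, 35.0, 5.59 and 1.60 RPKM and at 7.18 RPKM in the gametophyte, a margin of 4.88 (2.42 to 11.1) that rests on 9 gametophyte reads. Unigene27772, of 510 bases, was at 5.45, 0.341, 24.9, 1.08 and 0.684 RPKM and at 1.54 RPKM in the gametophyte, a margin of 4.57 (2.63 to 8.41). The wide intervals come with few reads outside stage 3. The remaining 6 were Unigene19302 at 4.003, Unigene20109 at 3.86, Unigene19294 at 3.76, Unigene17150 at 3.51, Unigene20295 at 3.39 and CL9460.Contig2 at 3.19. Of the 10, Unigene17150 also stood among the 10 most abundant.

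At the limit itself, 4 members tied at 2.0015, each with exactly 2 times as many reads in stage 3 as in stage 1: CL3167.Contig3, Unigene15057, Unigene30244 and Unigene17857, with 110, 70, 26 and 18 stage 3 reads. The excess over 2 is the ratio of the stage 1 and stage 3 library totals. Just outside lay Unigene20404, at 199 RPKM in stage 3 and 99.8 in stage 2, Unigene3556, at 41.3 and 20.7 RPKM in stages 3 and 2, and CL13570.Contig7, at 14.9 RPKM in stage 3 and 7.47 in stage 5. Their margins were 1.997, 1.994 and 1.994.

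The size of the group depended on how the libraries were scaled to each other. With TMM factors computed from the unigenes listed in all libraries, stage 3 had a factor of 1.17 against 0.747 for the gametophyte, and 61 of the 116 had a margin of at least 2. With median-ratio factors the number was 78. Stage 3 was the highest library for all 116 under both scalings, with a lowest margin of 1.30 and 1.35. This outcome was fixed in advance, because the factors of any pair of libraries differ by less than the 2-fold margin of the rule. When the rule, its floor included, was applied to the rescaled values, 52 and 69 unigenes passed, each of them among the 116. Of the 10 most abundant members, Unigene791, Unigene24930, Unigene17150, CL1357.Contig1 and CL7332.Contig1 held a margin of 2 under both, and Unigene25317 had 1.48 and 1.54.

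**Figure D3:**
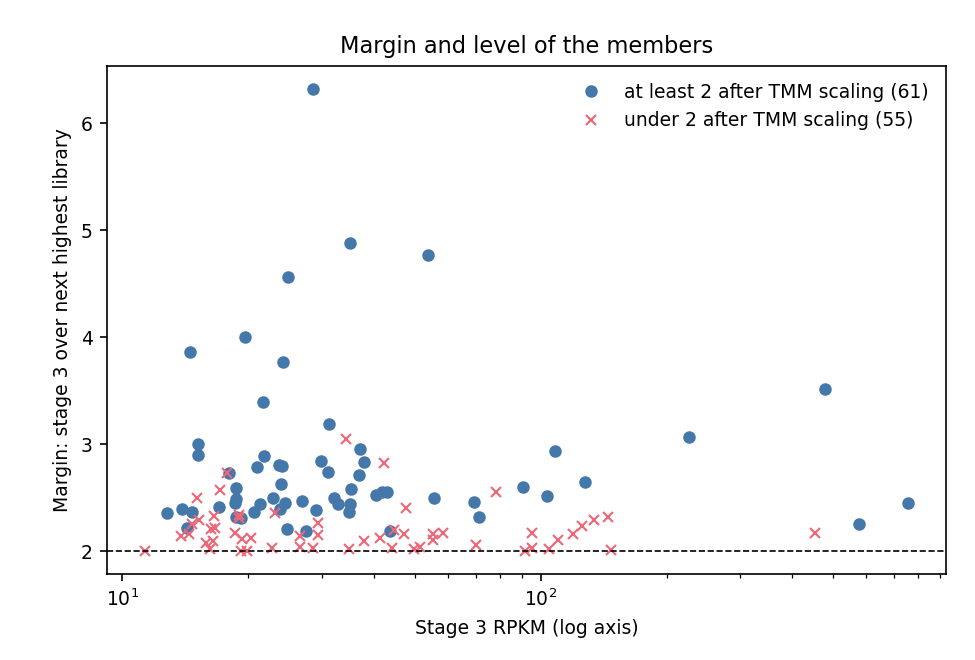
Margin of stage 3 over the next highest library against stage 3 RPKM (log axis), 1 point per member, with the rule's limit of 2 dashed. Blue circles are the 61 members at 2 or more after TMM scaling and red crosses are the others.

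Outside stage 3, the members were most often highest in stage 1, and less often in the neighbouring stages 2 and 4. Stage 1 was the next highest library for 82 of 116 (70.7%), where it was the highest of the same 5 libraries for 26.0% of the shared unigenes. Stage 2 was next for 21 (18.1%, background 17.8%), the gametophyte for 8 (6.90%, background 17.4%), stage 5 for 3 (2.59%, background 24.96%) and stage 4 for 2 (1.72%, background 13.9%). After TMM scaling stage 1 was next for 59 of the 116 (50.9%, background 21.6%) and the gametophyte for 29 (background 26.5%). The share also moved with the floor on the mean RPKM. Stage 1 was next for 58.1% of the 344 unigenes at a floor of 1 and 62.5% of the 56 at a floor of 10. No background is given at these floors.

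**Figure D4:**
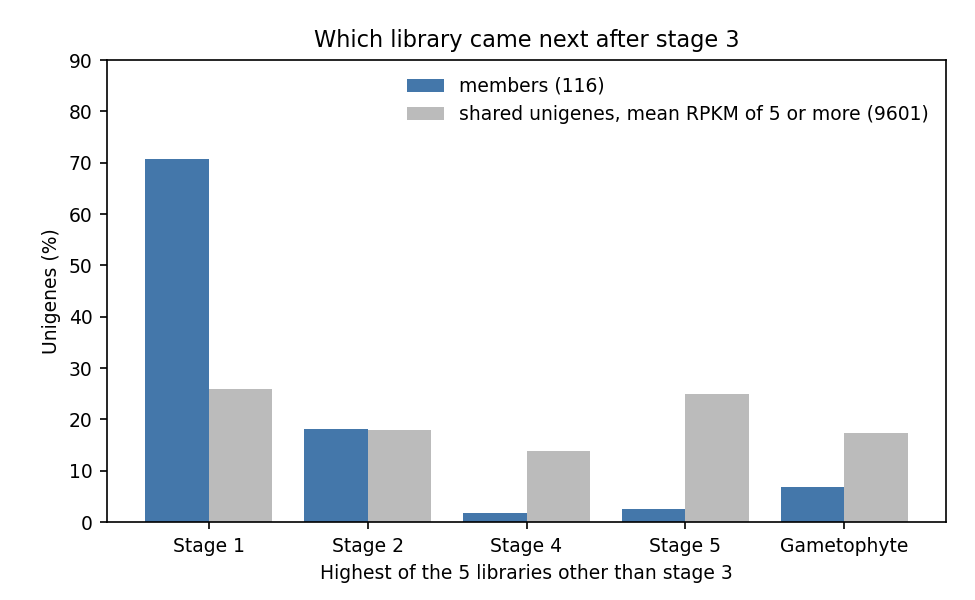
Percentage of the 116 members (blue) and of the 9601 shared unigenes (grey) for which each library was the highest of the 5 other than stage 3, in deposited RPKM. Stage 1 holds 70.7% of the members and 26.0% of the shared unigenes.

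More unigenes stood out in stage 3 when stage 1 was set aside. When the margin was asked only over stages 2, 4 and 5 and the gametophyte, 516 unigenes passed, 400 of them no members. Among these 400, stage 1 lay below stage 3 in 251, from 1 to under 2 times stage 3 in 131 and at least 2 times stage 3 in 18. Leaving out stage 2 gave 223, and leaving out the gametophyte gave 175.

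Members with stage 2 next were led by Unigene791 and Unigene17150, and those with stage 1 next by Unigene24930 and CL1357.Contig1. With the gametophyte next, the highest after Unigene29503 was Unigene22104, of 582 bases, at 17.6, 6.87, 51.4, 0.630 and 2.099 RPKM across stages 1 to 5, with the gametophyte at 25.2 RPKM. It was read 2 times in stage 4 and 7 times in stage 5, so its level outside stage 3 lay in the gametophyte and the small capsules.

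The 2 members with stage 4 next were CL2433.Contig1, of 3232 bases, at 18.2, 13.9, 44.6, 20.2 and 13.6 RPKM across stages 1 to 5, with the gametophyte at 9.80 RPKM, and Unigene20295, at 6.38 RPKM (14 reads) in stage 4 and 21.6 RPKM in stage 3. Of the 3 with stage 5 next, CL35.Contig2, of 3799 bases, was at 44.8, 45.2, 104, 29.4 and 51.6 RPKM across stages 1 to 5, with the gametophyte at 0.482 RPKM (7 reads). Unigene16879 was at 14.7 RPKM in stage 5, close to its 14.0 RPKM in stage 1. In CL2433.Contig1 and CL35.Contig2 the capsule libraries outside stage 3 lay within 2-fold of each other, while Unigene16879 was lower in stages 2 and 4, at 6.10 and 5.14 RPKM.

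The libraries that the rule did not set against each other were then compared pair by pair, with a ratio of RPKM of at least 2 in either direction as the call. Members could pass the floor on the mean mainly through stage 3, and the shared unigenes through any library. Levels outside stage 3 were thus not matched between the groups, and their shares of calls are not like for like. Between stages 1 and 2, 40 members (34.5%) were higher in stage 1 and 2 (1.72%) were lower, where 20.8% of the shared unigenes were higher and 20.8% lower. The median member had 0.62 more in stage 1 on the log2 scale, against 0.0081 for the shared unigenes. The excess of stage 1 over stage 2 reached 35.3-fold in CL3380.Contig1, at 19.98 and 0.567 RPKM (141 and 4 reads), and 16.0-fold in Unigene2968, at 6.29 and 0.393 RPKM (16 reads and 1 read). The 2 members lower in stage 1 were Unigene29310, at 4.07 and 12.2 RPKM in stages 1 and 2, and Unigene19024, at 3.27 and 7.52 RPKM. Both rest on few reads, 7 and 21 for the former and 10 and 23 for the latter.

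Stages 4 and 5 were low in many members. Against stage 2, 48 members were lower and 8 higher in stage 4 (background 14.3% lower and 6.1% higher), and 44 were lower and 5 higher in stage 5 (background 17.8% lower and 16.9% higher). As shares, 41.4% of the members were lower in stage 4 and 37.9% in stage 5, while 6.90% and 4.31% were higher. Stage 1 was at least 2 times stage 4 in 72 members (62.1%) and below it by that measure in 0, where 24.9% of the shared unigenes were higher and 19% lower. All comparisons with stage 1 use the same stage 1 library, and all with stage 2 the same stage 2 library.

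Between the big and the middle-sized capsules the members were divided, as were the shared unigenes. Stage 5 was higher than stage 4 in 28 members (24.1%, background 20.5%) and lower in 22 (19.0%, background 14.5%). No difference from the shared unigenes is read from these shares. The median was -0.10 on the log2 scale, and 0.11 for the shared unigenes. The balance of the counts turned with the scaling: 23 were higher and 26 lower after TMM scaling, with 16.3% and 19.1% of the shared unigenes, and the members' median was then -0.31. At the extremes, Unigene19237 was at 9.43 RPKM in stage 5 and 0.619 RPKM (1 read) in stage 4, and Unigene18742 at 4.23 and 0.370 RPKM (12 reads and 1 read). In the other direction CL11119.Contig1 was at 1.36 RPKM in stage 5 and 10.9 RPKM in stage 4, and Unigene1754 at 1.10 and 5.79 RPKM.

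Against the gametophyte, stages 1 and 2 were more often higher than lower by this measure, and stages 4 and 5 were divided. In the shared unigenes each of these stages was more often higher than lower. Stage 1 was higher in 68 members (58.6%) and lower in 0 (background 39% higher and 16.8% lower). Stage 2 was higher in 54 (46.6%) and lower in 20 (17.2%), with a background of 35.7% and 14.8%. Stage 4 was higher in 37 (31.9%) and lower in 31 (26.7%), with a background of 34.1% and 18.2%. Stage 5 was higher in 42 (36.2%) and lower in 34 (29.3%), with a background of 42.2% and 18.6%. The members' shares for stage 2 lower and stage 4 higher lay near the background, and no difference is read from them. The median log2 ratios to the gametophyte were 1.56, 0.78, 0.071 and 0.00083 for stages 1, 2, 4 and 5, against 0.63, 0.55, 0.48 and 0.67 over the shared unigenes. These comparisons share the gametophyte library. They also depend on the limit that the rule sets on the gametophyte: when it was left out of the margin, the median log2 ratio of stage 1 to the gametophyte over the 175 unigenes that passed was 0.41, below the 0.63 of the shared unigenes. TMM scaling moved all unigenes by -0.52, -0.45, -0.35 and -0.56 in these comparisons, which put the members' medians at 1.04, 0.33, -0.28 and -0.55, so the direction for stages 4 and 5 depends on the scaling.

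For the comparisons that chose the members, the shared unigenes give the background only. Stage 3 was at least 2 times stages 1, 2, 4 and 5 in 11%, 16.9%, 24.4% and 22.1% of them, and 2 times the gametophyte in 37.4%. By the rule it was so in all 116 members, with median ratios of 2.48, 3.82, 8.01, 7.56 and 7.45.

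The members were not of a single kind outside stage 3. In 71 members (61.2%) stages 1 and 2 were each above both stages 4 and 5, where 14.4% of the shared unigenes showed this order, and in 20 (17.2%, background 2.14%) each of the former was at least 2 times each of the latter. In 34 members (29.3%) stage 1 and the gametophyte were each above stages 2, 4 and 5, where 11.4% of the shared unigenes showed this order. In 7 members (6.03%) the 5 other libraries lay within 2-fold of each other, against 13.7% of the shared unigenes. After TMM scaling the first and the second of these orders were found in 71 and 40 members, with 13.7% and 14.8% of the shared unigenes.

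Examples of these orders were taken by stage 3 level, after the values had been seen. Unigene25580, of 2165 bases, was at 55.2, 31.3, 119, 8.29 and 10.1 RPKM across stages 1 to 5, with the gametophyte at 37.1 RPKM. Unigene22885, of 1097 bases, was at 36.77, 36.76, 108.0, 7.01 and 6.05 RPKM across stages 1 to 5, with the gametophyte at 16.9 RPKM. Both were at least 2 times higher in each of stages 1 and 2 than in stages 4 and 5, and Unigene22885 had 232 reads in both stage 1 and stage 2.

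Stage 1 was at least 2 times each of stages 2, 4 and 5 in 33 members (28.4%), against 10.02% of the shared unigenes. Unigene1610, of 1949 bases, was at 33.99, 13.3, 70.0, 6.49 and 4.48 RPKM across stages 1 to 5, with the gametophyte at 16.7 RPKM. CL3167.Contig3, of 209 bases, was at 45.8, 3.33, 91.6, 0.877 and 0.835 RPKM, with the gametophyte at 16.3 RPKM. It had 55 and 110 reads in stages 1 and 3, 4 in stage 2 and 1 each in stages 4 and 5, so that 2 small stages and the gametophyte held nearly all of its reads. Among the members that were even outside stage 3, Unigene22936, of 633 bases, had the highest stage 3 level, at 19.8, 15.9, 47.5, 15.3 and 12.4 RPKM across stages 1 to 5, with the gametophyte at 16.1 RPKM.

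The level in the gametophyte varied widely among the members. In CL35.Contig2 and CL1357.Contig1 it was at 0.0113 and 0.0316 of the mean of stages 1, 2, 4 and 5, and in Unigene22104 and Unigene2968 at 3.70 and 3.59 times that mean. The gametophyte was the lowest of the 5 libraries other than stage 3 in 46 members (39.7%, background 46.2%), and in 36 (31.0%, background 32.0%) after TMM scaling. No difference from the shared unigenes is read from these shares.

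Of the members, 83 were single unigenes and 33 were contigs numbered within 32 clusters. Contigs were 28.4% of the members and 36.9% of the shared unigenes. The meaning of the cluster numbers is not stated in the labels or files. If contigs that share a number are alike in sequence, reads may have been divided among them in counting, which makes the level of a lone contig uncertain.

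CL9510 was the cluster with 2 members. CL9510.Contig1, of 2797 bases, was at 16.4, 11.8, 41.9, 15.9 and 10.2 RPKM across stages 1 to 5, with the gametophyte at 0.748 RPKM, and CL9510.Contig2, of 791 bases, was at 13.4, 5.71, 32.8, 9.50 and 6.18 RPKM and at 0.331 RPKM. Both contigs had stage 1 next, stage 4 above stage 5 and very few gametophyte reads (8 reads and 1 read). They differed in stage 2, which lay below stage 4 in both and more so in the shorter contig.

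In 21 of the 32 clusters further contigs were listed. Each cluster sum includes the member, which was chosen for its stage 3 peak, so a stage 3 peak of the sum follows in part from the rule. The summed RPKM of all contigs was highest in stage 3 in 20 of these 21 clusters and kept a margin of 2 in 11, with a median margin of 2.04. By summed reads, scaled to the library totals, the margin of 2 held in 12. The cluster without a stage 3 peak depended on the measure: CL3086 had a margin of 0.72 by RPKM and 1.06 by reads, and CL13570 had 1.70 and 0.70. The member was the most abundant contig of its cluster in stage 3 in 17. In the other 4 it held between 7.20% and 18.6% of the cluster's stage 3 sum, and none of these sums kept the margin of 2. CL3086.Contig6 was at 18.6 RPKM in stage 3, while the summed level of its cluster was 194 RPKM there and 269 RPKM for the gametophyte. Of the 50 further contigs themselves, 15 were highest in stage 3. Another 10 were highest in stage 4, 9 in stage 2, 8 in the gametophyte, 7 in stage 5 and 1 in stage 1. Among the 35 of them with a mean RPKM of at least 1, 8 were highest in stage 3.

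**Figure D5:**
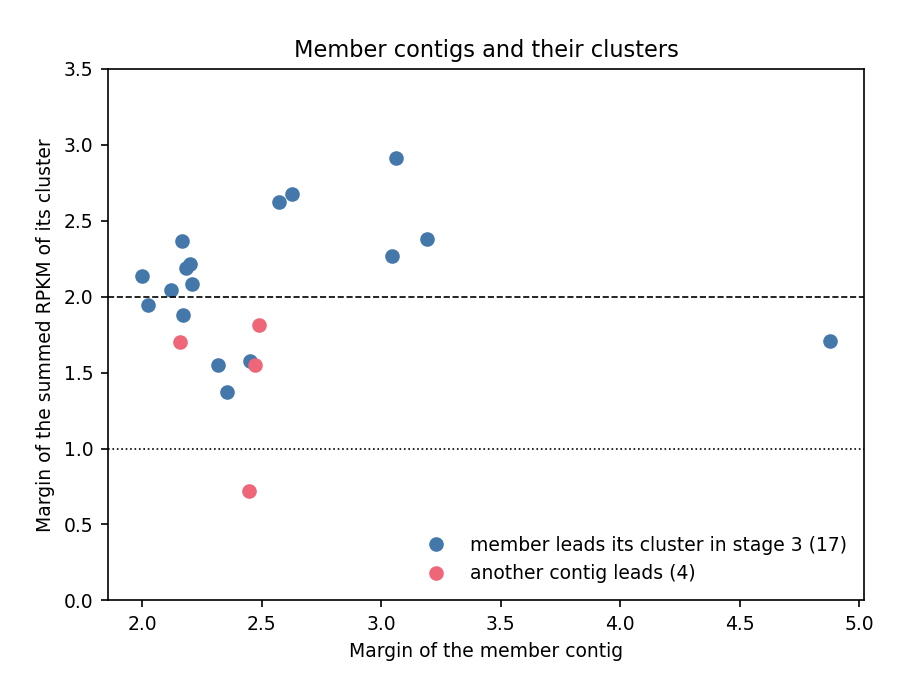
Margin of stage 3 for the summed RPKM of each cluster with further contigs (vertical) against the margin of its member contig (horizontal), for 21 clusters. The sum stays at 2 or more (dashed) in 11, and lies below 1 (dotted) in CL3086, where the gametophyte is highest.

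Some clusters held a contig with the opposite pattern. CL11119.Contig1, of 1415 bases, was at 30.7, 3.07, 71.2, 10.9 and 1.36 RPKM in stages 1 to 5, with 250, 25, 579, 84 and 11 reads. CL11119.Contig2, of 1392 bases, had no value listed in stages 1 and 3 and was at 30.2, 35.1 and 13.3 RPKM in stages 2, 4 and 5, with 242, 267 and 106 reads. The summed cluster was at 30.7, 33.3, 71.2, 46.0 and 14.6 RPKM in stages 1 to 5, so that its margin was 1.55 and not the 2.32 of the member. Of 50 further contigs in these clusters, 8 from 7 clusters were listed in stages 2, 4 and 5 and in neither stage 1 nor stage 3, and 6 from 4 clusters showed the reverse. Some of the 8 rest on few reads: CL2350.Contig3 had 1, 2 and 1 in stages 2, 4 and 5, and CL6038.Contig4 had 2 in each. The share of either pattern over all unigenes is not given here, so the counts describe these clusters only. In CL1357, Contig2 and Contig3 were highest in stage 4, at 18.0 and 37.2 RPKM, but at 3.43 and 10.7 RPKM in stage 3 they were small beside the 226 RPKM of the member, and the cluster's margin was 2.91. Whether the contigs of a cluster are alleles, copies or splice forms was not tested.

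By the same rule 118 unigenes peaked in stage 2 and 112 in stage 4, close to the 116 of stage 3, and 599 peaked in the gametophyte. The margins and next libraries of those 3 groups were not compared here. Unigenes peaking in stages 1 and 5 by the same rule numbered 255 and 419. Their median margins were 2.72 and 2.61 against 2.37 for stage 3, and 38.8% and 33.4% of them reached a margin of 3 against 11.2%. Their largest margins were 37.8 and 22.2 against 6.32, and their peak levels had medians of 54.0 and 67.3 RPKM against 28.8 RPKM. Their median lengths were 1479 and 1581 bases against 705.5. Of the stage 1 peaks, 92 (36.1%) had stage 3 as the next highest library and 112 (43.9%) stage 5. Of the stage 5 peaks, 171 (40.8%) had stage 1 next, so stage 1 was the commonest next library there as well, at a smaller share than the 70.7% of the stage 3 peaks. With single libraries these differences have no test.

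A few unigenes had the members' profile at a smaller margin. Over the 6 libraries, the Pearson r of log2 RPKM with the members' median profile was 0.990 for CL3875.Contig1, 0.987 for Unigene24986 and 0.985 for CL966.Contig2, the 3 highest among the shared unigenes that are no members. CL3875.Contig1, of 4344 bases, was at 29.7, 19.1, 50.2, 14.6 and 12.3 RPKM across stages 1 to 5, with the gametophyte at 14.3 RPKM. Its margin was 1.69, and those of the other two were 1.27 and 1.54. The order of the libraries was close to that of the median member, at a lower amplitude.

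The demand for a value in all 6 libraries also set aside unigenes with a stage 3 peak. With a dash read as 0, 181 unigenes met the mean and the margin, and 65 of them had a dash in at least 1 library. The dash stood in the gametophyte for 45, and in stages 4, 5, 2 and 1 for 23, 18, 12 and 0. None of the 181 was listed in stage 3 only. A further 255 unigenes listed in all libraries had the margin but a mean under 5.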

How the data were processed

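RNA-seq values were deposited for 6 libraries, 1 per group. Per the labels, total RNA was extracted with TRIzol and libraries followed standard Illumina protocols. The authors deposited RPKM, per the file headers; no label or header states which assembler, aligner or counting rule they used. Library totals were computed from the steps between the commonest low values. For each unigene the smallest length between 200 and 15000 bases that makes all its values whole reads was taken, within 0.9 of the last printed digit, which gave a length for all 74566. Recovered reads were 96.1% to 99.7% of the totals. Lengths and reads can be too small where they share a factor, and any multiple of a total would also give whole reads. The recovery and the selection were tested on simulated data, with outcomes not given here. The simulation took the recovered lengths as true, so it cannot show whether those are too small. Its planted peaks had a margin of 3 in unigenes with a mean RPKM of 10 or more, and many members lie below both. Ratios use RPKM as deposited with no pseudocount, and the call is a ratio of 2. Intervals are conditional-binomial (scipy 1.17.1, Python 3.11.15). TMM and median-ratio factors were computed from the 18218 unigenes listed in all libraries. Without the members, the background shares were computed from 9485 unigenes. Named members were the 10 highest in stage 3, the 10 largest margins, the 2 highest for each next library, the 3 nearest each side of the limit, clusters with 2 members, extremes of 3 ratios, and the 3 most similar other unigenes. Contigs of clusters beyond this rule, the examples of orders among the libraries, and the fourth member tied at the limit, were picked after their values were seen. The members and lists were chosen with earlier results of these data known.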

Additional observations from a re-analysis of the deposited data

How the results depend on the processing

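The number of members moved with most choices. It was 344 and 56 with a mean RPKM floor of 1 and 10, 52 with TMM scaling, 69 with median-ratio scaling, 13 and 405 with a margin of 3 and 1.5, and 175 without the gametophyte in the margin. It was 516 without stage 1 and 223 without stage 2 in the margin, alternatives chosen after seeing the data. It was 101 on RPKM + 1 and 112 with at least 20 stage 3 reads and a counting interval above 1. The share with stage 1 next was 58.1% of the 344 unigenes at the floor of 1 and 60.9% of the 69 that passed with median-ratio scaling. Over the 116 members themselves, median-ratio scaling left stage 1 next for 57 (49.1%, background 21.3%). The median log2 ratio of stage 5 to stage 2 was -0.71 over the 116 members. It was -1.10 over the 52 unigenes that passed with TMM scaling and -1.11 over the 69 with median-ratio scaling. Over the same 116 members it was -0.81 and -0.82 with these scalings. For the 13 unigenes at a margin of 3 the median log2 ratios were -0.094 for stage 4 to stage 2 and -0.33 for stage 5 to stage 4. Over the 116 members these were -0.73 and -0.10. The median log2 ratio of stage 1 to the gametophyte was 0.41 over the 175 unigenes without the gametophyte in the margin, and 1.56 over the 116. The cause was not tested, beyond the members each setting keeps. Under every setting where they were computed, the median log2 ratios of stage 1 to stage 2 and to the gametophyte stayed above 0. Those of stages 4 and 5 to stage 2 stayed below 0. The ratios of stages 4 and 5 to the gametophyte were not followed through these settings. Over the 116 members their medians went from 0.071 and 0.00083 to -0.28 and -0.55 with TMM scaling. No paired analysis was possible because each group has 1 library. Low reads limit single members: 79 had fewer than 20 in the gametophyte.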

Other observations

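Among the single unigenes that are members, 2 pairs had successive numbers. Of the 52 number neighbours of members that belong to the shared unigenes, 4 (7.69%) were members too, where members are 1.21% of the shared unigenes. Each pair is counted from both sides, and the 1.21% is over all shared unigenes, contigs of clusters included. The pairs are Unigene22461 with Unigene22462 and Unigene26898 with Unigene26899, picked after their values were seen. Unigene22461, of 328 bases, was at 22.3, 22.3, 55.7, 3.91 and 12.2 RPKM in stages 1 to 5 and 7.18 RPKM in the gametophyte. Unigene22462, of 354 bases, was at 41.3, 38.3, 104, 7.25 and 12.3 RPKM and 14.8 RPKM. Unigene26899, of 2205 bases, was at 14.2, 7.88, 42.3, 2.33 and 4.83 RPKM and 15.0 RPKM. The Pearson r of log2 RPKM within a pair, over 6 libraries that all peak in stage 3 by the rule, was 0.96 and 0.95. For the peaks of the other libraries the share of such neighbours ran from 4.08% (stage 4, where such peaks are 1.17% of the shared unigenes) to 25.1% (gametophyte, where they are 6.24%). How the numbers were assigned is not given in the sources used here.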
